A study of Mus musculus with 26 samples.

Results

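Tmsb10, Actn4 and Tpm2 encode 3 proteins that bind actin in different ways, and their RNA was followed here in whole embryonic mouse hearts. Every probe set annotated to 1 of these 3 genes was taken, which gave 6 probe sets of the 13179 on the arrays and 3 genes of the 6137 that were annotated. Tmsb10 had 2 probe sets, Actn4 had 3 and Tpm2 had 1. The genes were chosen from the comparison of null with wild-type hearts: Tmsb10 and Actn4 by their small unadjusted p-values, and Tpm2 as a member of a smooth muscle gene list. Their differences between null and wild-type hearts are therefore given as a description, with no test.

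The mouse line carries a deletion of the NK2-specific domain, a conserved stretch of the cardiac homeodomain transcription factor Nkx2.5. Total RNA came from the entire heart at embryonic day 12.5. Hearts 1, 2, 7, 9 and N1 (5 in all) were labelled wild-type, hearts 5, 6, 12 and N2 (4) heterozygous, and hearts 3, 4, 8 and N3 (4) null for the deletion. Each was measured on an A and a B oligonucleotide array. The labels name no other allele or agent, and give no strain, litter, sex or date, so p-values measure only the spread between these hearts. In whole hearts, fewer cells of a type and less RNA per cell cannot be told apart.

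Actin exists as single monomers and as filaments, and cells steer the balance with proteins that hold monomers, cap or cut filaments, bind along their sides or tie them together. Thymosin beta 10, the product of Tmsb10, is a short peptide that holds actin monomers and is abundant in embryonic tissue. Alpha-actinin-4, the product of Actn4, crosslinks actin filaments in non-muscle cells, where it sits in stress fibres and at adhesions. Beta-tropomyosin, the product of Tpm2, lies along actin filaments and is best known from smooth and skeletal muscle.

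In RefSeq (assembly GRCm38.p6) Tmsb10 spans positions 72957347 to 72958748 of chromosome 6, Actn4 positions 28893248 to 28962351 of chromosome 7 and Tpm2 positions 43513726 to 43523583 of chromosome 4. Where the probes lie within each transcript was not analysed here. The promoter windows are shown because the line alters a DNA-binding factor of the heart. They run from 250 bases before to 50 bases after an annotated start, all on the minus strand, and capitals mark GGGCGG (the GC box core) or AAGTG on either strand. For Tmsb10, the innermost of 3 overlapping windows is printed.
Tmsb10, chr6:72958183-72958482: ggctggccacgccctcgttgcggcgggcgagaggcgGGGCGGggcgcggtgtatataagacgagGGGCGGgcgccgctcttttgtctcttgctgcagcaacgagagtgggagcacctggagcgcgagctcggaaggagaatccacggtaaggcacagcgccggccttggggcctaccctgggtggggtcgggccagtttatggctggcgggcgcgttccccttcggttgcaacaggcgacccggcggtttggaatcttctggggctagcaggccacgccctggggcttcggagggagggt
Actn4, chr7:28962283-28962582: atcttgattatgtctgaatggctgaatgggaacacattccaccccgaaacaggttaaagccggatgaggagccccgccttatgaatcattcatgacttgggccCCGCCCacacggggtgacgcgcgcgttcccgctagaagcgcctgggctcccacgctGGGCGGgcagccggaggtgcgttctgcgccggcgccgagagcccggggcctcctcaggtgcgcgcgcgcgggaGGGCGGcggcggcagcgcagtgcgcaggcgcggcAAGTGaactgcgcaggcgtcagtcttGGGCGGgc
Tpm2, chr4:43523505-43523804: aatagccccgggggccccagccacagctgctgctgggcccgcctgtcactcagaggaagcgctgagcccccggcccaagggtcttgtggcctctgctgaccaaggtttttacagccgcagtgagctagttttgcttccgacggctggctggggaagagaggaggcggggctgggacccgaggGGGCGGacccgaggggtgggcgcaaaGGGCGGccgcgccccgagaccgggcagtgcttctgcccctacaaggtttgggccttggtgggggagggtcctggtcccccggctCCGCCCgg

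The 3 genes had 5 such windows in the RefSeq table. The sequence TNAAGTG, the element that Nkx2.5 is known to bind, occurred on either strand in 0 of the 5, and in 11.5% of all 32851 windows. Its shorter core AAGTG, which every TNAAGTG also holds, occurred in 1 of the 5 (Actn4, from base 267 of the window) and in 46.4% of all windows. GGGCGG occurred in all 5 and in 35.7% of all windows, and the CArG box, the element of serum response factor, in 0 of the 5 and in 1.63% of all. The GC content of the 5 windows was 56.7% to 71.7%, against a median of 52.7%. A match describes these letters only, and the absence of one says nothing about whether the factor binds there.

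Deposited values were intensities on a linear scale, 1 per probe set and array, on 13 A and 13 B arrays. The share of probe sets above a noise floor, set at 2 times the root mean square of a table's negative values (887 for A, 1373 for B), ranged from 46.8% to 51.9% among A arrays and from 30.7% to 35.8% among B arrays. These shares and the array medians, 797 to 968 on A and 426 to 586 on B, are over probe sets with a value on every array. Of the arrays, 6 A and 4 B had blank cells, and 3 of each kind were blank for most probe sets, so several probe sets below lack hearts. All 10 annotated cardiomyocyte markers exceeded the floor on at least 4 arrays, and 0 of 3 annotated neuron markers did. Differences are on the log2 scale after values under the floor were raised to it, with standard errors from limma. The fit covered 4494 probe sets, 5 of them from the 3 genes.

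Tmsb10 signal was higher in null than in wild-type hearts by both of its probe sets, and only 1 of them separated the groups. Probe set AA230776_f_at read 20532, 21659, 19814, 21635 and 20531 in wild-type hearts 1, 2, 7, 9 and N1. In heterozygous hearts 5, 6, 12 and N2 it read 21783, 23000, 24461 and 33188. In null hearts 3, 4, 8 and N3 it read 29225, 23701, 32820 and 26337. Every null heart lay above every wild-type heart, and so did every heterozygous heart, with N2 the highest of all 13. The means were 20834 ± 798 (SD, n = 5), 25608 ± 5171 (n = 4) and 28021 ± 3915 (n = 4). The coefficient of variation was 3.8% in wild-type hearts, 20.2% in heterozygous and 14.0% in null hearts. The log2 difference of null from wild-type hearts was 0.42 ± 0.14 (SE), or 1.34-fold, and 0.15 after quantile scaling between arrays.

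The second Tmsb10 probe set, aa537404_f_at, read 31999, 24186, 27660 and 22794 in wild-type hearts 2, 7, 9 and N1. It read 28333, 28256 and 41861 in heterozygous hearts 5, 12 and N2, and 32144, 32560, 33578 and 29316 in null hearts 3, 4, 8 and N3. Wild-type heart 2 lay above null heart N3, so the groups overlapped, and heterozygous heart N2 was again the highest. Hearts 1 and 6 were blank. The means were 26660 ± 4106 (SD, n = 4), 32817 ± 7833 (n = 3) and 31900 ± 1825 (n = 4). Null hearts differed from wild-type hearts by 0.27 ± 0.16 in log2, or 1.21-fold, and by 0.022 after quantile scaling. The suffix _f stands for a probe set that may detect other members of the same gene family, so the share of Tmsb10 in either signal is uncertain.

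**Figure D1:**
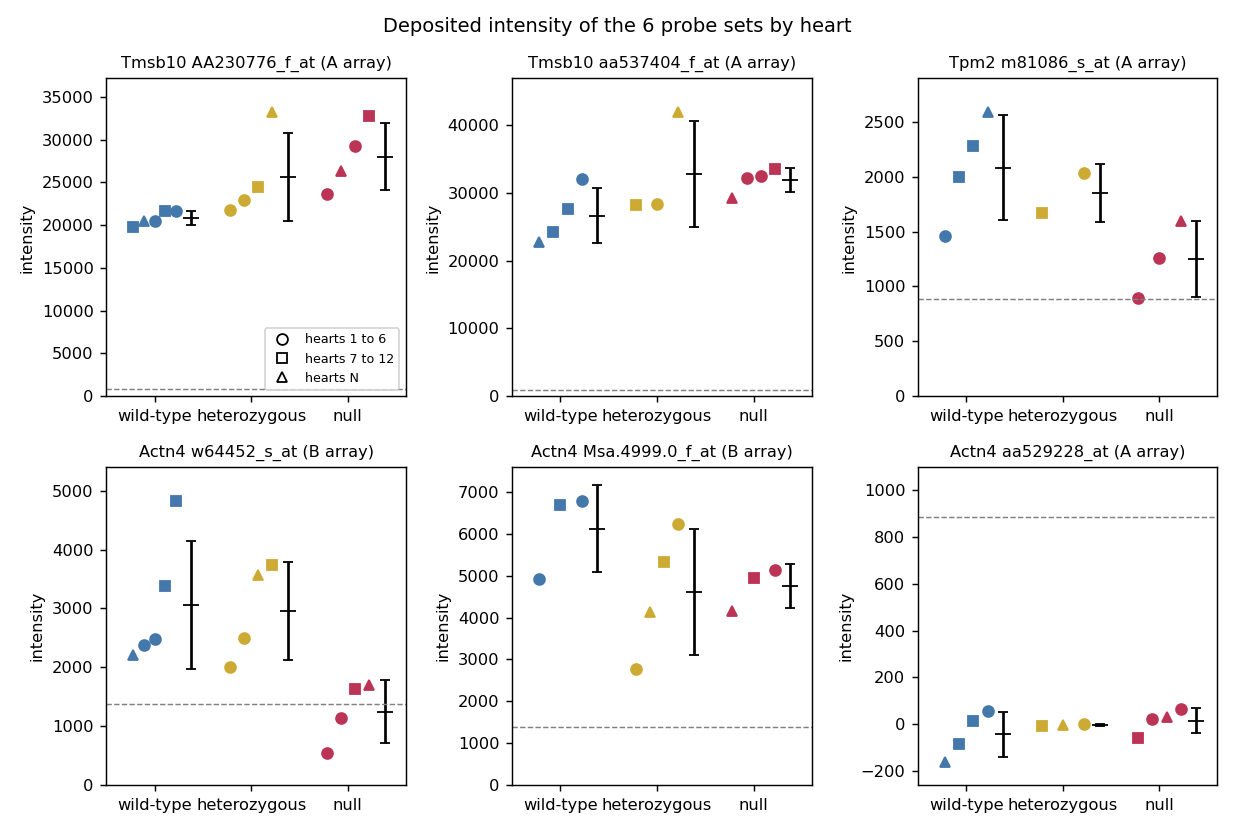
Deposited intensity (y axis) of each of the 6 probe sets by genotype, 1 point per heart, sorted by value within a genotype. Point shapes mark heart numbers, black bars the mean and SD, and dashed lines the noise floor (887 on A, 1373 on B). The 4 null hearts lie above the 5 wild-type hearts for Tmsb10 AA230776_f_at and below them for Actn4 w64452_s_at, and Actn4 aa529228_at stays under the floor.

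Actn4 signal had a lower mean in null than in wild-type hearts by both probe sets above the floor, and only 1 of them separated the groups. Probe set w64452_s_at read 2371, 2486, 4825, 3388 and 2209 in wild-type hearts 1, 2, 7, 9 and N1. In heterozygous hearts 5, 6, 12 and N2 it read 2505, 2005, 3746 and 3568. In null hearts 3, 4, 8 and N3 it read 535, 1130, 1629 and 1698. All 4 null hearts lay below all 9 others, while wild-type and heterozygous hearts covered much the same range. The means were 3056 ± 1090 (SD, n = 5), 2956 ± 838 (n = 4) and 1248 ± 539 (n = 4), so the wild-type mean was 2.45 times and the heterozygous mean 2.37 times the null mean. Null hearts 3 and 4 were under the floor of 1373, as was the null mean, so the fitted differences rest partly on values raised to it. They were -0.95 ± 0.25 for null against wild-type hearts and -0.92 ± 0.26 for null against heterozygous hearts. With the floor at 3 times the noise they were -0.50 and -0.48, and with a lower, robust noise estimate -1.33 and -1.30.

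The second Actn4 probe set, the _f set of the B array, did not separate the genotypes. It read 4915, 6780 and 6679 in wild-type hearts 1, 2 and 7. It read 6234, 2771, 5317 and 4124 in heterozygous hearts 5, 6, 12 and N2, and 5142, 4956 and 4153 in null hearts 4, 8 and N3. Wild-type heart 1 lay below null hearts 4 and 8, and the heterozygous hearts spanned the null hearts on both sides. Hearts 9, N1 and 3 were blank on this probe set, and null heart 3 held the lowest value of w64452_s_at. The means were 6125 ± 1049 (SD, n = 3), 4612 ± 1500 (n = 4) and 4751 ± 526 (n = 3). Null hearts differed from wild-type hearts by -0.36 ± 0.28 and from heterozygous hearts by 0.10 ± 0.26. The suffixes _f and _s mark probes that can match several family members or transcripts, so neither signal is certain to be Actn4 alone.

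The third Actn4 probe set, aa529228_at, read between -161.3 and 64.6 in 11 hearts. It exceeded the floor in 0 of 11, was not tested and gives no level of the gene.

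Tpm2 signal was lower in null hearts on average, with overlap. Its only probe set, m81086_s_at, read 1463, 2279, 2000 and 2585 in wild-type hearts 2, 7, 9 and N1. It read 2036 and 1666 in heterozygous hearts 5 and 12, and 897, 1255 and 1597 in null hearts 3, 4 and N3. Null heart N3 lay above wild-type heart 2, and all 3 null hearts lay below both heterozygous hearts. Hearts 1, 6, N2 and 8 were blank, so the gene was measured in 9 of 13 hearts, all above the floor of 887. The means were 2082 ± 477 (SD, n = 4), 1851 ± 262 (n = 2) and 1249 ± 350 (n = 3). The log2 difference was -0.75 ± 0.26 for null against wild-type hearts, which puts wild-type hearts 1.68-fold higher, and -0.60 ± 0.31 for null against heterozygous hearts. Without null heart 3, the lowest, these were -0.53 and -0.38.

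Across all 4494 probe sets, few differences between null and wild-type hearts passed the threshold, an adjusted p of 0.05 in limma: 1 probe set was called, or 0.0223%, and 108 had an unadjusted p under 0.05. The called probe set belongs to none of the 3 genes. Null hearts lay wholly above wild-type hearts in 51 probe sets (1.13%) and wholly below in 54 (1.2%), among them Tmsb10 AA230776_f_at and Actn4 w64452_s_at. Because that comparison chose the genes, nothing is read from their place among these. Between null and heterozygous hearts, which share the null hearts with the choice, limma called 0 probe sets (0%), with 260 at an unadjusted p under 0.05. There the groups did not overlap in 183 probe sets with null hearts higher (4.07%) and 179 with null hearts lower (3.98%), and the latter include Actn4 w64452_s_at and Tpm2. These shares pool probe sets with different numbers of hearts. Tpm2 had 3 null and 2 heterozygous hearts, and so few separate more easily. Tmsb10 differed between null and heterozygous hearts by 0.14 ± 0.14 by AA230776_f_at and -0.017 ± 0.17 by aa537404_f_at.

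The heterozygous hearts took no part in choosing the genes, though the wild-type hearts they were compared with did. None of the 5 probe sets passed in limma between heterozygous and wild-type hearts. Over all probe sets, 0 of 4494 passed (0%), with 152 at an unadjusted p under 0.05. Tmsb10 AA230776_f_at was 0.28 ± 0.14 higher in heterozygous hearts (95% interval -0.0077 to 0.56, adjusted p = 0.981), with all 4 heterozygous hearts above all 5 wild-type hearts. Such complete separation occurred in 120 probe sets with heterozygous hearts higher (2.67%) and 147 with them lower (3.27%). For this single probe set an exact two-sided permutation test over hearts gave p = 0.0159, the smallest it can give with 4 against 5. That p takes no account of the choice of the gene, which used the same wild-type hearts, or of the 5 probe sets. The size of the difference leaned on heterozygous heart N2: without it the value was 0.15, and without all 3 N hearts 0.14.

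The other probe sets overlapped between heterozygous and wild-type hearts. Tmsb10 aa537404_f_at differed by 0.29 ± 0.17 (interval -0.073 to 0.65, adjusted p = 0.981), with a value of 0.098 without heart N2 and 0.027 without the N hearts. Actn4 w64452_s_at differed by -0.03 ± 0.25 (interval -0.56 to 0.50, adjusted p = 0.999). The Actn4 _f set differed by -0.46 ± 0.26 (interval -1.03 to 0.11, adjusted p = 0.981). Tpm2 differed by -0.15 ± 0.30 (interval -0.79 to 0.50, adjusted p = 0.990), from 2 heterozygous hearts against 4 wild-type hearts. The exact permutation p of these 4 probe sets, in the same order, was 0.229, 0.952, 0.229 and 0.8, and for Tpm2 it cannot go below 0.133.

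**Figure D2:**
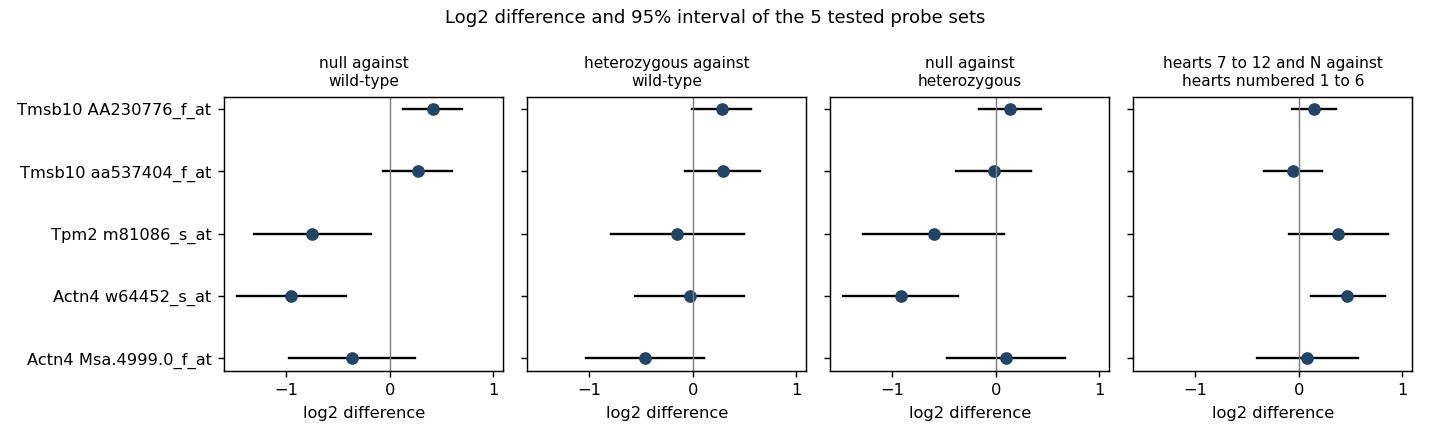
Log2 difference (x axis, points) with its 95% interval in limma (lines) for the 5 tested probe sets in 4 comparisons. The null-against-wild-type and null-against-heterozygous panels are descriptive. Against wild-type hearts, heterozygous hearts gave 0.28 and 0.29 for Tmsb10 and -0.03 for Actn4 w64452_s_at, and all 5 intervals in that panel include 0.

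The genes were also compared by heart number. The labels do not say what the numbers stand for. The split was used because an earlier result of these data had shown that it divides the arrays. The share of probe sets that pass in it was thus favoured by that choice. Hearts 7 to 12 and N were compared with hearts 1 to 6, with genotype in the model, and 321 of 4494 probe sets (7.14%) passed in limma, 174 higher (3.87%) and 147 lower (3.27%). Actn4 w64452_s_at averaged 1839 ± 822 (SD, n = 6) in hearts 1 to 6 and 3009 ± 1190 (n = 7) in the others. Hearts 1 to 6 held the lowest value among heterozygous and among null hearts, and heart N1 the lowest among wild-type hearts. Its difference was 0.47 ± 0.17 (interval 0.12 to 0.83), with an adjusted p of 0.097 in limma. It passed without wild-type heart N1 (0.57, adjusted p = 0.0389) and without the mostly blank arrays (0.66, adjusted p = 0.0495). Over all settings tried, its value stayed between 0.31 and 0.71.

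Tpm2 averaged 1413 ± 477 (SD, n = 4) in hearts 1 to 6 and 2025 ± 416 (n = 5) in the others, a difference of 0.38 ± 0.22 (adjusted p = 0.309 in limma). Tmsb10 differed by 0.15 ± 0.10 by AA230776_f_at (adjusted p = 0.385) and by -0.055 ± 0.13 by aa537404_f_at (adjusted p = 0.832). The Actn4 _f set differed by 0.082 ± 0.22 (adjusted p = 0.856). None of these 4 passed.

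The difference of null from wild-type hearts, which chose the genes, is given within each range of heart numbers as a description only. For Tmsb10 AA230776_f_at the difference was 0.32 in hearts 1 to 6, 0.66 in hearts 7 to 12 and 0.36 in the N hearts. For Actn4 w64452_s_at it was -0.82, -1.31 and -0.38, from 1 or 2 hearts per genotype and range. For Tpm2 it was -0.46 in hearts 1 to 6 and -0.70 in the N hearts, and hearts 7 to 12 had no null value. For Tmsb10 aa537404_f_at it was 0.016, 0.38 and 0.36, and for the Actn4 _f set -0.17 and -0.43, with no N value in wild-type hearts. With the number range in the model, the 5 differences in the same order were 0.43, -0.87, -0.70, 0.25 and -0.32. The heterozygous difference of AA230776_f_at was 0.086, 0.24 and 0.69 in the 3 ranges.

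The probe sets of 1 gene were then set against each other across hearts, in 2 pairs, with the p-values adjusted over both. The 2 Tmsb10 probe sets varied together over 11 hearts, with Pearson's r = 0.81 (permutation p = 0.00142, adjusted 0.00284) and Spearman's rho = 0.85 (permutation p = 0.00179, adjusted 0.00358). The permutations shuffled hearts across genotypes, so these p-values include the difference between genotypes for which Tmsb10 was chosen. Without the 2 hearts farthest from the median r was 0.65, and on deviations from the genotype means 0.71. The r on deviations was not tested. The pair shares the A array and its scaling. After quantile scaling between arrays, r was 0.67 (permutation p = 0.0295, adjusted 0.0589), rho was 0.36 (permutation p = 0.277), and without the 2 farthest hearts r was -0.14, so on that scale the relation did not pass and rests on those hearts. Without the N hearts r was 0.72 (n = 8, exact permutation p = 0.0223, adjusted 0.0446) and rho 0.79 (exact permutation p = 0.0279, adjusted 0.0559), with r = 0.31 on deviations from the genotype means.

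The 2 Actn4 probe sets above the floor agreed less. Over 10 hearts r was 0.34 (permutation p = 0.337) and rho 0.38 (permutation p = 0.281), with r = 0.39 without the 2 farthest hearts. Heterozygous heart 6 was the lowest heart on the _f set, and null heart 4 was the lowest of the shared hearts on w64452_s_at. No range of heart numbers held the 6 hearts a correlation within it would need.

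**Figure D3:**
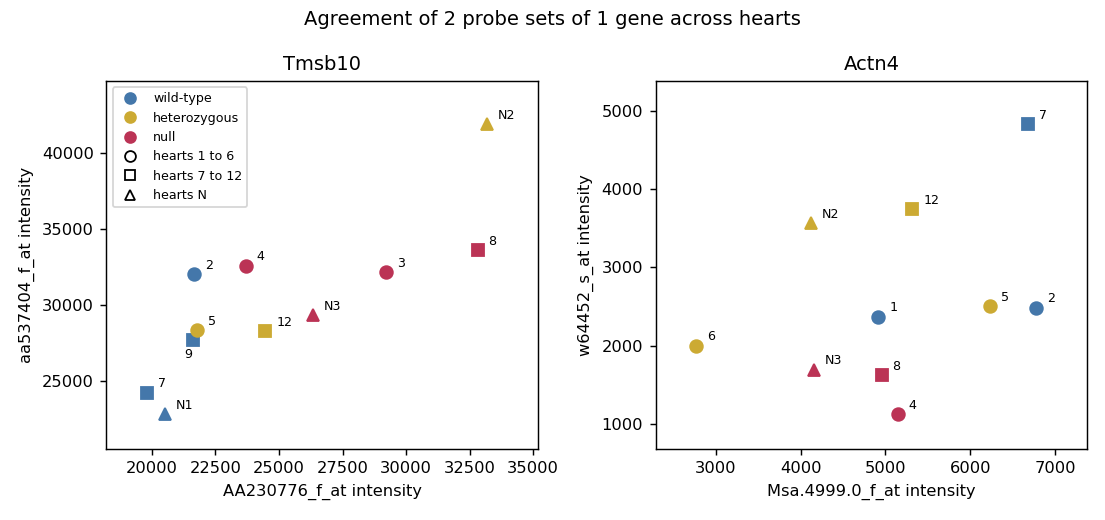
Intensity of 1 probe set (x axis) against the other probe set of the same gene (y axis), 1 labelled point per heart with a value on both; the axes do not start at 0. For Tmsb10 the points rise together (r = 0.81, n = 11) with heterozygous heart N2 at the top right, and for Actn4 they scatter (r = 0.34, n = 10).

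Tmsb10 was among the bright signals of the A array, so it was set beside the other 112 tested A probe sets within 0.5 of either Tmsb10 probe set in mean log2 signal (14.06 to 15.37). These bright probe sets had a median log2 difference between null and wild-type hearts of 0.10, with quartiles of 0.026 and 0.17. The value of AA230776_f_at, 0.42, was exceeded by 1 of them, and that of aa537404_f_at, 0.27, by 8. Tmsb10 had been chosen for this difference and the 112 had not, so nothing is read from its rank. Quantile scaling moved the median of the bright probe sets to -0.14 and the Tmsb10 values to 0.15 and 0.022. Cyclic loess scaling gave -0.031, with Tmsb10 at 0.31 and 0.13. Between heterozygous and wild-type hearts the bright probe sets had a median of 0.042, and 7 of 112 exceeded each Tmsb10 value.

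By heart, the median deviation of bright probe sets from the wild-type mean was taken over the 13 of them with no blank. It was highest in null heart 3, at 0.31, where AA230776_f_at stood at 0.49 and aa537404_f_at at 0.28. In null heart 8 it was 0.16, against 0.66 and 0.35 for Tmsb10, and in heterozygous heart N2 0.12, against 0.67 and 0.66. In null heart 4 it was 0.097, against 0.19 and 0.30. In null heart N3 it was 0.11, against 0.34 and 0.15, and in heterozygous heart 12 0.03, against 0.23 and 0.096. Both Tmsb10 probe sets stood above this median in null hearts 4, 8 and N3 and heterozygous hearts 12 and N2. In null heart 3, aa537404_f_at stood below it. Tmsb10 had been chosen for its difference between null and wild-type hearts, so nothing is read from its place in null hearts.

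**Figure D4:**
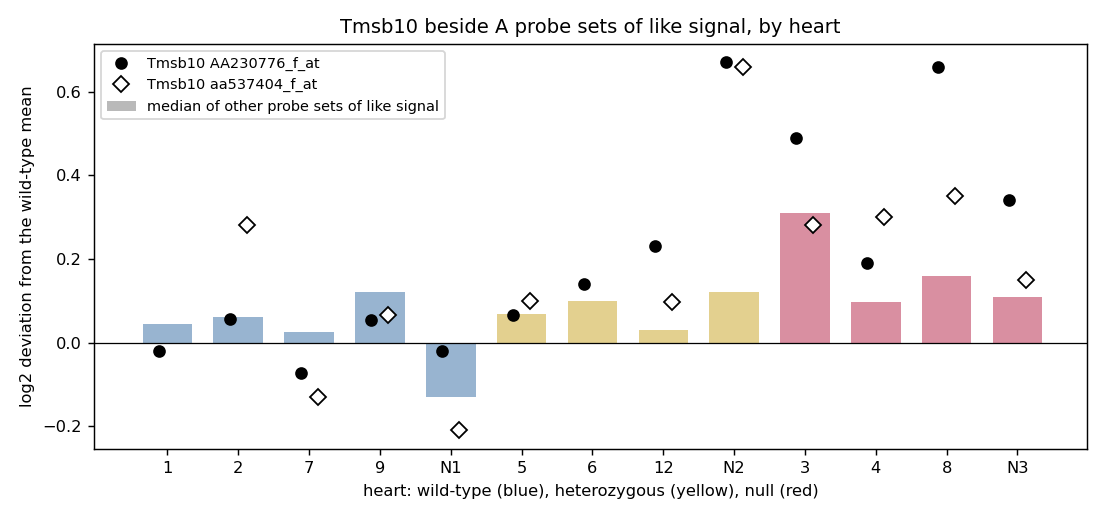
Log2 deviation from the wild-type mean (y axis) in each of the 13 hearts (x axis): circles and diamonds are the 2 Tmsb10 probe sets, bars the median of 13 other A probe sets of like signal. Tmsb10 reaches 0.67 and 0.66 in heterozygous heart N2 while the bar there is 0.12.

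The other actin-binding genes were read from a list of 106 genes in 8 roles, of which 67 were annotated on the arrays and 45 tested, 1 probe set per gene. Between null and wild-type hearts 0 of the 45 passed in limma; 20 were higher and 25 lower, with a median of -0.02 beside -0.0063 over all probe sets, of which 48.6% were higher. Their differences ran from -0.54 to 0.29, so the values of Tmsb10 AA230776_f_at, Tpm2 and Actn4 w64452_s_at lay outside that range. That range leaves out the other probe sets of the 45 genes, and on 1 of them, of Tln1, the value was 0.45. The 3 genes had been chosen with this comparison in view, Tmsb10 and Actn4 for their differences in it, so nothing is read from their place outside that range. Of the crosslinking proteins, the role of Actn4, 2 were higher and 6 lower; of the side-binding proteins, the role of Tpm2, 6 were higher and 2 lower; and the only monomer-binding gene tested beside Tmsb10 stood at -0.067.

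None of the named differences in this list passed (adjusted p = 1.0 for each in limma). On the lower side, Evl, which promotes filament elongation, differed by -0.54 ± 0.31, Fscn1, the filament bundler fascin, by -0.45 ± 0.32, and Lcp1, the bundler plastin of blood cells, by -0.28 ± 0.17. Zyx, the adhesion protein zyxin, differed by -0.26 ± 0.18, Ezr, the membrane linker ezrin, by -0.24 ± 0.21, and Msn, the related moesin, by -0.15 ± 0.14 and by -0.50 ± 0.38 on its other probe set. On the higher side, Tmod3, which caps pointed ends, differed by 0.29 ± 0.21, Vasp, another elongation factor, by 0.25 ± 0.28, and Tagln2, a transgelin, by 0.23 ± 0.14. Tln1, the integrin linker talin, differed by 0.22 ± 0.16, and by -0.44 and 0.45 on its other probe sets. Cfl1, the severing protein cofilin, differed by 0.18 ± 0.21 (0.084 ± 0.13 on its other probe set) and the formin Diaph1 by 0.15 ± 0.15.

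Between heterozygous and wild-type hearts 22 of the 45 were higher and 23 lower, and 0 passed in limma, with a median of -0.0083 beside -0.014 over all probe sets. The 5 tested capping genes had values of 0.05 to 0.36. At 1 probe set per gene, the spectrin Sptbn1 (-0.61 ± 0.29, adjusted p = 0.981) stood lowest, Tmod3 (0.36 ± 0.21, adjusted p = 0.981) highest. The other probe set of Msn, left out of that count, stood lower at -0.88 ± 0.36 (adjusted p = 0.981). Between null and heterozygous hearts 20 were higher and 25 lower, 0 passed, and the median was -0.06 beside 0.019 over all probe sets. There Sptbn1 stood highest (0.80 ± 0.31, adjusted p = 0.774 in limma) and Evl lowest (-0.69 ± 0.31, adjusted p = 0.79). Zyx stood at -0.59 ± 0.19 (adjusted p = 0.774). Between hearts 7 to 12 and N and hearts 1 to 6, 22 were higher and 23 lower, and 2 passed, both higher: Zyx (0.42 ± 0.10, adjusted p = 0.0271) and Synpo, the actin-bundling synaptopodin (0.56 ± 0.15, adjusted p = 0.035). That is 2 of 45 against 7.14% of all probe sets, and the count was 0 without wild-type heart 2, null heart 4 or null heart 8, and 1 without wild-type heart 1 or 7 or heterozygous heart 6 or N2.

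**Figure D5:**
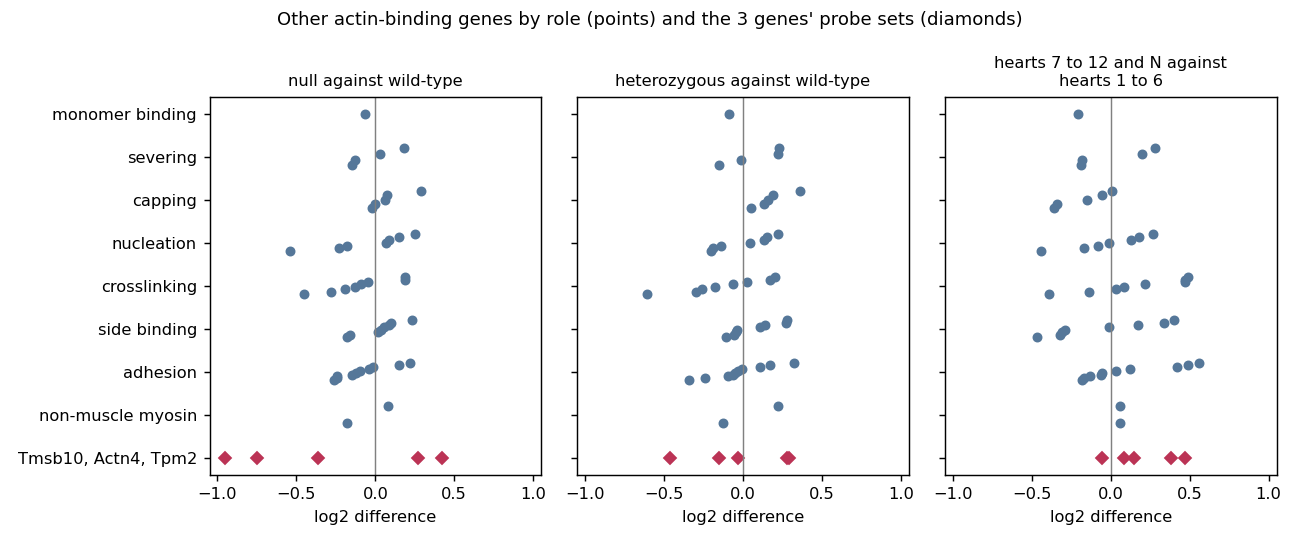
Log2 difference (x axis) of the 45 other tested actin-binding genes by role (blue points, spread vertically for legibility) and of the 5 tested probe sets of Tmsb10, Actn4 and Tpm2 (red diamonds) in 3 comparisons. In the null-against-wild-type panel the 45 genes, at 1 probe set each, lie between -0.54 and 0.29, and the diamonds run from -0.95 to 0.42.

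The closest relatives of Actn4 and Tpm2 are given as values only, since they were not chosen from the comparison of null with wild-type hearts as the 3 genes were. Actn1, the other non-muscle alpha-actinin, averaged 3078 ± 707 (SD, n = 5) in wild-type against 2884 ± 683 (n = 4) in null hearts, a difference of -0.09 ± 0.22. Its probe sets aa571361_at and aa571361_g_at were above the floor in 0 of 10 hearts each and were not tested. A muscle form, Actn3, was above the floor in 0 of 13 hearts on either of its probe sets, and Actn2 had no probe set annotated to it alone. Among tropomyosins, Tpm1 differed by -0.18 ± 0.21, Tpm4 by 0.086 ± 0.17, and Tpm3 by 0.014 ± 0.18 and -0.25 ± 0.22 on its 2 probe sets. Tmsb4x, the related thymosin beta 4, was above the floor in 0 of 9 hearts on its only probe set, which therefore gives no level of the gene. A difference between relatives was not tested.

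By heart number none of the tested relatives passed. Actn1 stood at 0.47 ± 0.14 in hearts 7 to 12 and N against hearts 1 to 6 (adjusted p = 0.0548 in limma), beside 0.47 for Actn4 w64452_s_at. Tpm1 stood at 0.40 ± 0.16 (adjusted p = 0.135), beside 0.38 for Tpm2. Tpm4 stood at -0.32 ± 0.11 (adjusted p = 0.089), opposite in sign to Tpm2. Tpm3 differed between its probe sets, at -0.29 ± 0.13 on X53753_s_at (adjusted p = 0.181) and 0.03 ± 0.21 on u04541_at (adjusted p = 0.953 in limma).

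Genes with the most similar pattern across hearts were ranked by Pearson's r among tested, singly annotated probe sets of the same array that share at least 8 hearts, as a description. Tmsb10 AA230776_f_at was most like Wwp2 (0.83, 13 hearts), Scd2 (0.81, 9 hearts) and Gsta4 (0.77, 10 hearts) among 2423 probe sets. Tmsb10 aa537404_f_at was most like Sem1 (0.91), Gstm5 (0.87) and Rps28 (0.85), each over 9 hearts. The 2 lists have 0 genes in common. Tpm2 was most like Ccnd3 (0.93), Pdcd6ip (0.89) and Dab2ip (0.89) over 9 hearts among 2424, and on deviations from the genotype means like Ythdf1, Actn1 and Pex6 (0.93 each). For Actn4, the _f set was most like Kdr (0.76), Ext1 (0.75) and Ncam1 (0.68) and w64452_s_at like Col5a2 (0.84), Cdc42 (0.79) and Alas1 (0.78), over 10 hearts among 667 probe sets. On such deviations, Tmsb10 AA230776_f_at was most like Cyb5r4 (0.93), Wwp2 (0.92) and Mnat1 (0.88). Tmsb10 aa537404_f_at was then most like Galt, Sem1 and Noc4l (0.90 each). For the Actn4 _f set they were Ext1 (0.87), Ncam1 (0.79) and Gadd45b (0.78), and for w64452_s_at Klc1 (0.92), Acvr2b (0.92) and Calm2 (0.91). Deviations from genotype means keep any difference by heart number, and there Tpm2 (0.38) and Actn1 (0.47) had the same sign. All points share an array, its scaling and the genotypes.

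Markers of cell types that express these proteins were summed by heart. In the 9 hearts with a Tpm2 value, 5 smooth muscle markers (Acta2, Tagln, Myh11, Cnn1 and Des) summed to 48326 to 77643 in wild-type, 59598 to 84449 in heterozygous and 66345 to 94202 in null hearts. A sum of intensities weighs the brightest gene most. Acta2 alone read 30459 to 66425 in wild-type, 39281 to 64886 in heterozygous and 45950 to 73958 in null hearts, over all 13. Between null and wild-type hearts, Tagln differed by -0.16 and Cnn1 by 0.053 in log2, so the markers did not move together. Of the 5, Myh11 did not exceed the floor on 4 arrays, and the part of these markers in the Tpm2 values was not tested. Of the 6 listed skeletal muscle markers, all but Ckm (Myog, Myod1, Tnni2, Tnnt3 and Actn3) were summed. They gave 1962 to 4458, 4023 to 5648 and 6958 to 12485 in the same order of genotypes. Myod1, Tnnt3 and Actn3 were near the floor, and the part of these markers in the Tpm2 values was not tested. For Actn4, 4 of the 9 listed endothelial markers (Kdr, Tie1, Eng and Emcn) were summed in all 13 hearts. They gave 18430 to 30586 in wild-type, 23078 to 35622 in heterozygous and 13797 to 32857 in null hearts, and these ranges overlapped. All 9 markers, in the 9 hearts with a Tpm2 value, gave 29958 to 40818, 33830 to 46977 and 22494 to 33406. There the sums of the 3 null hearts lay below those of the 2 heterozygous hearts and overlapped those of wild-type hearts. Flt1, 1 of the 9, was near the floor, and the part of these markers in the Actn4 values was not tested.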

How the data were processed

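Total RNA of 13 hearts was measured on 26 arrays. The authors deposited 1 intensity per probe set and array, on a linear scale with 10.1% to 29.5% negative values per array. Software, background method and scaling target are not given in the sources used here, so the absolute scale is unknown. Blank cells were treated as missing. Values under the floor (887 on A, 1373 on B) were raised to it before log2. Testing required values above the floor on 4 or more arrays and 2 values per genotype, and left out array controls. Probe sets took genes from the platform annotation, updated by gene ID through RefSeq (5551 of 5560 IDs matched on A, 1993 of 2001 on B), and 0 of the 6 were annotated with several genes. Differences come from limma 3.58.1 in R 4.3.3, 1 fit per table to all hearts with a variance trend and Benjamini-Hochberg adjustment over 4494 probe sets, tested on simulated data. Permutation tests used scipy 1.17.1 in Python 3.11.15, exact below 10 hearts and with 100000 resamples otherwise. Named genes were all members, their relatives, up to 6 listed genes per direction by p-value and the 3 most similar genes. Alternatives were the floor, noise estimate, filter, scaling, array weights, number range and left-out hearts. The members, the lists and the split by heart number were chosen with earlier results of these data known. The number of arrays limits precision.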

Additional observations from a re-analysis of the deposited data

How the results depend on the processing

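Null against wild-type hearts, which called 1 probe set, called 2 with a floor of 1 time the noise or the robust noise estimate, 4 with the number range as a covariate, and 0 with no filter, without the mostly blank arrays or without the N hearts. Leaving out each heart in turn gave 0 to 3: 0 without wild-type heart 1, 7 or N1 or null heart 3 or N3, 2 without heterozygous heart 5, 6 or 12 or null heart 8, and 3 without wild-type heart 2. For null against heterozygous hearts the number range as a covariate gave 1 call in place of 0. For hearts 7 to 12 and N against 1 to 6, 321 calls became 198 with no filter, 192 without the mostly blank arrays and 103 to 342 with each heart left out. The lowest were 103 without wild-type heart 2, 104 without null heart 4, 142 without wild-type heart 7 or null heart 8, 175 without heterozygous heart 5, 184 without wild-type heart 1 and 211 without heterozygous heart 12. The 2 listed actin-binding genes called there became 1 with a floor of 1 or 3 times the noise, the robust noise estimate, quantile scaling or no filter, 0 without the mostly blank arrays or without the N hearts, and 0 to 3 with each heart left out.

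Of the differences between null and wild-type hearts, Tmsb10 moved with quantile scaling, to 0.15 (AA230776_f_at) and 0.022 (aa537404_f_at). Actn4 w64452_s_at moved to -0.50 with a floor of 3 times the noise and -1.33 with the robust noise estimate, and against heterozygous hearts to -0.48 and -1.30, by how far null values were raised. Tmsb10 aa537404_f_at moved to 0.21 between null and heterozygous hearts without the N hearts. Signs turned only for differences smaller than their standard errors. Between heterozygous and wild-type hearts, with the number range as a covariate, Tpm2 stood at 0.001 and Actn4 w64452_s_at at 0.05. The latter was 0.028 with cyclic loess and -0.16 to 0.15 with each heart left out. Between hearts 7 to 12 and N and hearts 1 to 6, Tmsb10 aa537404_f_at was 0.033 with quantile scaling, 0.067 with cyclic loess and -0.18 to 0.085 with each heart left out, and the Actn4 _f set was -0.019 with quantile scaling and -0.13 to 0.26 with each heart left out. Actn4 w64452_s_at in that comparison passed without the mostly blank arrays (0.66) and without wild-type heart N1 (0.57), within 0.39 to 0.57 with each heart left out. The cause of each change not named was not tested. No paired analysis was possible because the genotypes share no heart numbers. Signal under the floor limits Actn4 in null hearts, and blanks leave Tpm2 with 9 hearts.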
